A study of Mus musculus with 15 samples.

Results

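Genes of major histocompatibility complex (MHC) class I presentation were followed in mammary tissue RNA of mice that had received the flame retardant BDE-47 or its vehicle. The 10 genes were chosen by name (H2-K1, H2-D1, B2m, Tap1, Tap2, Tapbp, Psmb8, Psmb9, Psmb10 and Nlrc5), and all 10 were found among the 52526 genes of the expression tables. All 15 animals were female nude mice (Foxn1 nu/nu, an outbred stock without a working thymus, the organ in which T cells mature), and pumps were placed under the skin after 8 weeks of age. The 7 BDE-47 mice received the compound in PEG300 with 1% DMSO over 16 weeks (target 0.03 mg/kg/d), and the 8 vehicle mice received PEG300 with 1% DMSO for the same time. RNA came from the left 4th mammary tissue and was read with QuantSeq 3' FWD, which counts tags near the 3' end of each transcript, so a level does not grow with transcript length. Some animals of the study carried a xenograft in the region, and which ones is not given in the labels, so its part in the results was not tested.

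MHC class I molecules display short peptides from inside the cell to CD8 T cells and to natural killer cells. A heavy chain (H2-K1, H2-D1) pairs with the light chain beta-2 microglobulin (B2m). Peptides are cut by the proteasome, whose catalytic subunits can be exchanged for the immunoproteasome subunits Psmb8, Psmb9 and Psmb10, are carried into the endoplasmic reticulum by the transporter of Tap1 and Tap2, and are loaded with the help of tapasin (Tapbp). Nlrc5 is a transactivator of these genes. Interferons raise the whole set, and in the mammary gland nearly every cell type carries class I, with the highest levels in immune and endothelial cells.

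In GRCm38, the build named in the submitters' processing notes, 7 of the 10 genes lie on chromosome 17, in the MHC region. Psmb9, Tap1, Psmb8 and Tap2 sit side by side from 34182030 to 34216321. Psmb10 and Nlrc5 are on chromosome 8 and B2m is on chromosome 2. RefSeq promoter windows of GRCm38.p6 (250 bases before to 50 after the start) were at hand for 8 of the 10 genes. Both strands were searched for the letters TGACG, which stand here for an X2-like box. They were also searched for the interferon-response core GAANNGAAA, for the NF-kB consensus and for the Y box, which reads CCAAT. On the opposite strand a Y box reads ATTGG. The regulatory stretch that class I promoters are known for, an X2-like box followed by a Y box, was found in H2-K1, H2-D1 and B2m, with 20 bases between the boxes in all 3. It is shown because the 3 members that hold it were the 3 most abundant members. The spacing searched, 18 to 22 bases, was set after the sequences had been seen, and 0.268% of 32851 RefSeq promoter windows held such a pair. The pair is not limited to these 3 genes or to class I. Other genes with it included the class I heavy chains H2-M3 and H2-Q7 and the MHC class II gene H2-Aa. In capitals are the X2-like box and the reversed Y box, written 5' to 3' in the direction of the gene:
H2-K1, chr17:34000359-34000388, minus strand: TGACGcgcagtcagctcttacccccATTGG
H2-D1, chr17:35262993-35263022, plus strand: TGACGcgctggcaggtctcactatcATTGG
B2m, chr2:122147609-122147638, plus strand: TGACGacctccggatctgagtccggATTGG
Over these 30 bases H2-K1 and H2-D1 shared 23, and B2m shared 13 with H2-K1 and 12 with H2-D1. Upstream of that pair the heavy chain genes also held an NF-kB match and, on the other strand, an interferon-response core, both in capitals here, where the 2 overlapping NF-kB matches are written as 1 run:
H2-K1, chr17:34000429-34000458, minus strand: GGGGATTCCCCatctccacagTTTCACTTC
H2-D1, chr17:35262923-35262952, plus strand: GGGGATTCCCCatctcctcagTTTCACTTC
These 30 bases differ at 1 position between the 2 genes, 29 being identical. B2m held an NF-kB match as well (positions -126 to -117 from its start) but not the interferon-response letters. NF-kB matches were present in 8.46% of all windows, the interferon-response core in 7.52%, TGACG in 20.8% and CCAAT in 37.4%. The NF-kB consensus was found in 3 of the 8 genes and the interferon-response core in 2. Heavy chain genes of this region are near-identical over long stretches and vary between mouse strains. How reads that fit several of them were assigned is not given in the sources used here, so the split of reads between H2-K1, H2-D1 and their relatives is uncertain.

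Tap1 and Psmb9 are read away from each other from a shared stretch of 225 bases (chr17:34187331-34187555), shown on the plus strand, the direction of Tap1, because the 2 genes are set beside each other below. The capitals mark a CCAAT near the Psmb9 side and a TGACG, and no pair of boxes at the spacing above was present:
Psmb9 to Tap1: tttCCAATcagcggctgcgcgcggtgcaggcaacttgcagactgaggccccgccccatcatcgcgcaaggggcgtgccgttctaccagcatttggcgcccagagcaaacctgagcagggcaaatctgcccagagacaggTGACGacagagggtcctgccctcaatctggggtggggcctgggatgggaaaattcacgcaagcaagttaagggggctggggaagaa

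Levels are log2(CPM) as deposited, CPM being the reads of a gene with every library scaled to the same total. Values below 1 CPM are listed at 0. Depth recovered from the spacing of the low values was 10.06 to 19.58 M mapped reads per mouse. Of 14 housekeeping genes, 5 were listed at 0 in at least 1 mouse, so a 0 is reported here only as a value listed at 0. Mammary adipocyte markers were above 0 in every mouse (6 to 8 of 8) and so were epithelial markers (7 or 8 of 8). Vehicle replicates 6 and 8 stood apart: Cd79a, a B cell receptor component, was at 5.81 and 5.35 there and at 0 in the other 13 mice. All 10 B cell markers, Cd79a among them, were above 0 in these mice (summed levels of 731 and 813 CPM, against at most 9.87 CPM elsewhere). Lymph node stroma markers summed to 1002 and 1436 CPM there, against at most 19.8 CPM elsewhere, with 3 and 4 of 6 above 0. Most of that sum was Glycam1 (9.44 and 10.06 log2(CPM)), which is made by lymph node vessels and by mammary epithelium, while Ccl19 and Ccl21a were listed at 0 in all mice. Of 8 T cell markers, 8 and 7 were above 0 (573 and 272 CPM, against at most 10.9 CPM elsewhere), in a stock without a working thymus. Their adipocyte markers summed to 469 and 1112 CPM, against 10908 to 31589 CPM in the other vehicle mice. Their mammary epithelium markers summed to 40.9 and 109 CPM, against 373 to 1636 CPM in the other vehicle mice. BDE-47 replicate 6 held 73316 CPM of skeletal muscle markers, against 34.1 to 132 CPM in the other 14 mice. Its adipocyte markers (3891 CPM) were the lowest among mice with Cd79a at 0. Its mammary epithelium markers summed to 180 CPM, against 1093 to 2097 CPM in the other BDE-47 mice. Over the 2577 genes above 0 in every mouse, its median level was 5.20, against 5.73 to 6.15 in the other mice. The comparison is therefore given for all mice, for the 13 mice with Cd79a at 0 (6 vehicle, 7 BDE-47), and for the 12 that remain without BDE-47 replicate 6. In bulk tissue, fewer cells of a type and less RNA per cell cannot be told apart.

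Class I genes were read at levels that differed by orders of magnitude between members. Over the 13 mice with Cd79a at 0, the median level was highest for H2-K1 at 9.78, followed by B2m at 9.37, H2-D1 at 8.87, Tapbp at 7.28, Psmb8 at 7.11, Tap2 at 5.28, Psmb9 at 5.26, Psmb10 at 5.00 and Tap1 at 3.96, and the median of Nlrc5 was listed at 0. Ranges of neighbours in this order overlapped. The order is one of listed values, since how fully the reads of each gene were counted is not known. H2-K1 was above H2-D1 in 12 of 15 mice, by a median of 1.20 on the log2 scale. The 3 exceptions were vehicle replicates 5 and 6 and BDE-47 replicate 4. H2-K2, another heavy chain gene of the H2 region, was above 0 in these 3 mice only (3.95, 4.08 and 4.99). Whether reads were split differently between heavy chain genes in these mice was not tested, which limits the group comparisons of H2-K1 and H2-D1 below.

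**Figure D1:**
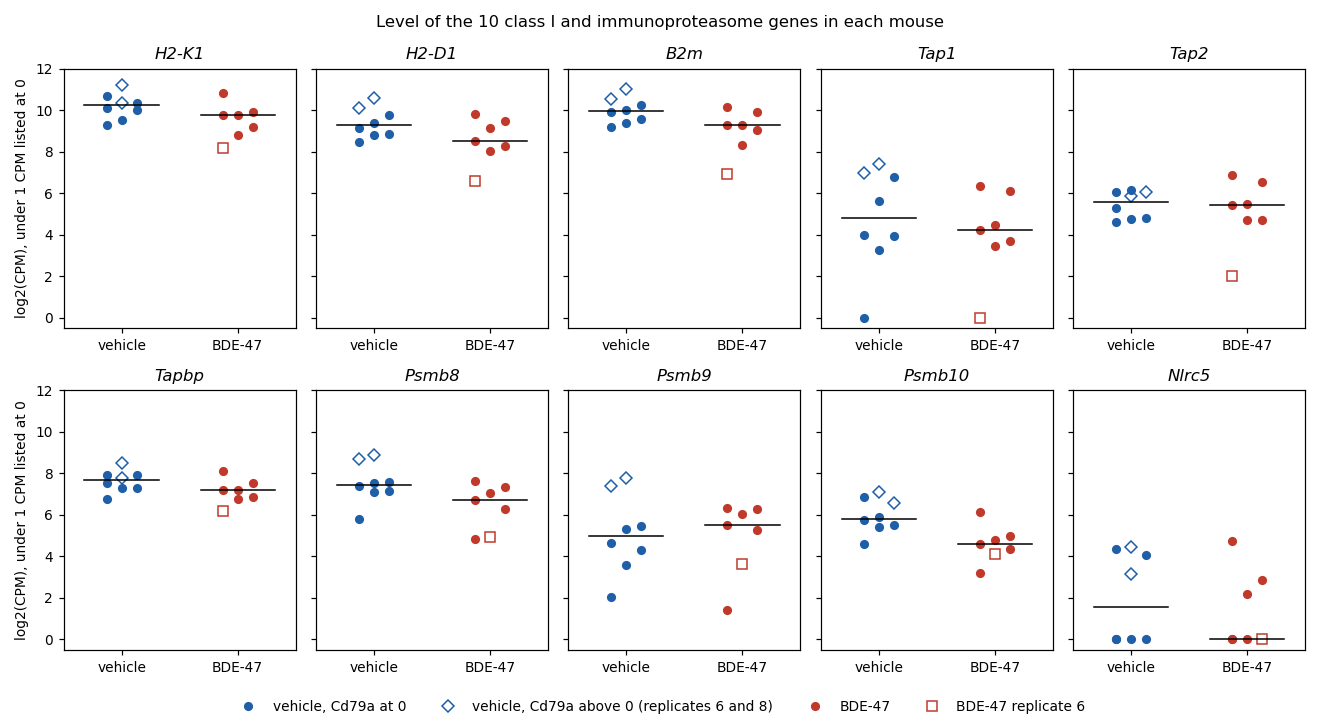
Each panel shows one gene as log2(CPM) per mouse, with genes under 1 CPM listed at 0; points are mice, black lines group medians, open diamonds the 2 vehicle mice with Cd79a above 0 and the open square BDE-47 replicate 6. The diamonds are the 2 highest mice for H2-D1, B2m, Tap1, Psmb8 and Psmb9, the square, whose median over all common genes is also the lowest, is lowest or tied for lowest in 7 of 10 genes, and the groups overlap in every panel.

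With all mice, every one of the 10 genes had a lower mean in BDE-47 mice, with a median log2 difference of -0.70 over the 10 genes, against -0.02 over the 9506 genes tested, of which 50.9% were lower. The light chain B2m and the immunoproteasome subunit Psmb10 differed by an unadjusted exact p under 0.05, that is 2 of 10 members, where 2.56% of all genes were lower at that p (4.42% in either direction). By limma, 5 of 10 (H2-K1, H2-D1, B2m, Psmb8 and Psmb10) had an unadjusted p under 0.05, all lower, where 2.71% of all genes were lower and 1.94% higher. Neither count is independent evidence, since the genes were chosen with results of these data known and their levels moved together across mice. After Benjamini-Hochberg adjustment over all genes tested, limma called 0 of the 10 and 0 of 9506 genes (0.0%), with a lowest adjusted p of 0.982 and 442 genes at an unadjusted p under 0.05. The exact permutation test called 0 genes after the same adjustment, with 420 at an unadjusted p under 0.05. Its smallest possible p is 0.000155 with all mice and larger with fewer mice. Many genes would have to share that p for any to be called, so its 0 adds little to that of limma, here and with fewer mice.

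Of the heavy chains, H2-K1 ranged from 9.30 over a median of 10.23 to 11.22 in vehicle mice and from 8.16 over 9.75 to 10.84 in BDE-47 mice. In BDE-47 mice, 3 of 7 lay below every vehicle mouse and none above. The geometric mean was 1172 CPM with vehicle and 719 CPM with BDE-47. The log2 difference was -0.70 (SE 0.33, limma adjusted p = 0.982), with a two-sided exact permutation p of 0.0875. It was -0.51 with Cd79a at 0 and -0.29 without BDE-47 replicate 6 as well.

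H2-D1, the second heavy chain, ranged from 8.48 over 9.27 to 10.58 with vehicle, where the Cd79a mice held the 2 highest values (10.58 and 10.11). It ranged from 6.56 over 8.52 to 9.82 with BDE-47, where replicate 6 held the lowest value and the next was 8.01. Its log2 difference was -0.86 (SE 0.38, limma adjusted p = 0.982, exact permutation p of 0.0873) with all mice, -0.54 with Cd79a at 0 and -0.21 without BDE-47 replicate 6 as well.

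B2m, the light chain shared by all class I molecules, ranged from 9.18 over 9.94 to 11.00 in vehicle mice and from 6.93 over 9.27 to 10.15 in BDE-47 mice. Vehicle replicates 8 and 6 were the 2 highest of all mice (11.00 and 10.55), BDE-47 replicate 6 was the lowest (6.93), and the other 12 mice lay between 8.33 and 10.25. The log2 difference was -0.98 (SE 0.36, limma adjusted p = 0.982), with an exact permutation p of 0.0367. That p was above 0.05 when any 1 of 8 mice was left out (vehicle replicates 3, 4, 6, 7 and 8, and BDE-47 replicates 1, 5 and 6), with differences from -0.63 to -1.17 over all 15 omissions. The difference was -0.71 with Cd79a at 0 (exact permutation test p = 0.153), and without BDE-47 replicate 6 as well it was -0.37 (p = 0.262 by the same exact test).

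The peptide transporter genes did not keep a direction. Tap1 was listed at 0 in vehicle replicate 5 and BDE-47 replicate 6 and otherwise lay between 3.27 and 7.40, with its 2 highest values in the Cd79a mice (7.40 and 6.98). Its median was 4.78 in vehicle and 4.24 in BDE-47 mice, and its log2 difference of -0.70 (exact permutation test p = 0.568) turned to 0.11 with Cd79a at 0 and to 0.79 without BDE-47 replicate 6 as well. Tap2 ranged from 4.62 over 5.56 to 6.14 with vehicle and from 1.99 over 5.45 to 6.88 with BDE-47, where 2 of 7 mice lay above every vehicle mouse and replicate 6 lay far below the next value of 4.69. Its difference of -0.34 (exact permutation test p = 0.650) became -0.17 and then 0.35 with the same omissions. Tapbp, the chaperone that bridges transporter and heavy chain, ranged from 6.75 over 7.66 to 8.49 with vehicle and from 6.18 over 7.21 to 8.11 with BDE-47. Its differences were -0.49, -0.32 and -0.16, and its exact permutation p with all mice was 0.121.

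All 3 immunoproteasome subunits had a lower mean with BDE-47 when all mice were used, and their differences from one another were not tested. Psmb8, which takes the place of Psmb5, ranged from 5.81 over 7.46 to 8.90 in vehicle mice and from 4.85 over 6.74 to 7.62 in BDE-47 mice. The Cd79a mice were again the 2 highest (8.90 and 8.70), and the lowest values belonged to BDE-47 replicates 4 and 6 (4.85 and 4.93). Its geometric mean was 184 CPM with vehicle and 84.5 CPM with BDE-47, a log2 difference of -1.12 (SE 0.48, limma adjusted p = 0.982, exact permutation p of 0.0584) that was -0.69 with Cd79a at 0 and -0.45 without BDE-47 replicate 6 as well.

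Psmb9, which takes the place of Psmb6, had a higher mean with BDE-47 once the Cd79a mice were left out. Those 2 mice were at 7.77 and 7.39, and no other mouse was above 6.31. The remaining vehicle mice ranged from 2.07 over 4.47 to 5.47 and the BDE-47 mice from 1.44 over 5.51 to 6.31, with 4 of 7 BDE-47 mice above all 6 of them. The log2 difference was -0.15 with all mice (exact permutation test p = 0.880) and 0.69 with Cd79a at 0 (p = 0.438 by the same exact test). It was 0.91 without BDE-47 replicate 6 as well (exact permutation test p = 0.3485).

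Psmb10, which takes the place of Psmb7, had the largest difference of the 10 genes. In vehicle mice it ranged from 4.60 over 5.82 to 7.09 and in BDE-47 mice from 3.22 over 4.59 to 6.13, with 4 of 7 BDE-47 mice below every vehicle mouse and none above. Its geometric mean was 62.5 CPM with vehicle and 24.3 CPM with BDE-47, a log2 difference of -1.36 (SE 0.57, limma adjusted p = 0.982) with an exact permutation p of 0.0104. The unadjusted exact p stayed under 0.05 with each of the 15 mice left out in turn, with differences from -1.13 to -1.62. With limma array weights the difference was -0.57, and with Cd79a as a covariate it was -1.07, and the unadjusted limma p was above 0.05 in both. Array weights brought the difference of B2m to -0.48, with the unadjusted limma p above 0.05 too. The difference was -1.07 with Cd79a at 0 (exact permutation test p = 0.0379), the single member of 10 under 0.05 there, where 2.5% of all genes were lower at that p. That p was above 0.05 without any 1 of 9 mice (vehicle replicates 2, 3, 4, 5 and 7, and BDE-47 replicates 2, 4, 5 and 6), and it was 0.0628 (exact test) without BDE-47 replicate 6, with a difference of -0.99. It was 0.0641 (exact test) with every mouse centred on its median, with a difference of -0.95.

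Nlrc5, the transactivator, was above 0 in 4 of 8 vehicle mice (4.47, 4.35, 4.07 and 3.16, the first and last of them the Cd79a mice) and in 3 of 7 BDE-47 mice (4.74, 2.87 and 2.19). The highest value of all thus came from a BDE-47 mouse, and 8 of 15 mice were listed at 0. It passed the filter of at least 7 mice above 0 by the narrowest margin. Its difference, -0.61 with all mice on the deposited scale (exact permutation test p = 0.574), was -0.0033 with Cd79a at 0.

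**Figure D2:**
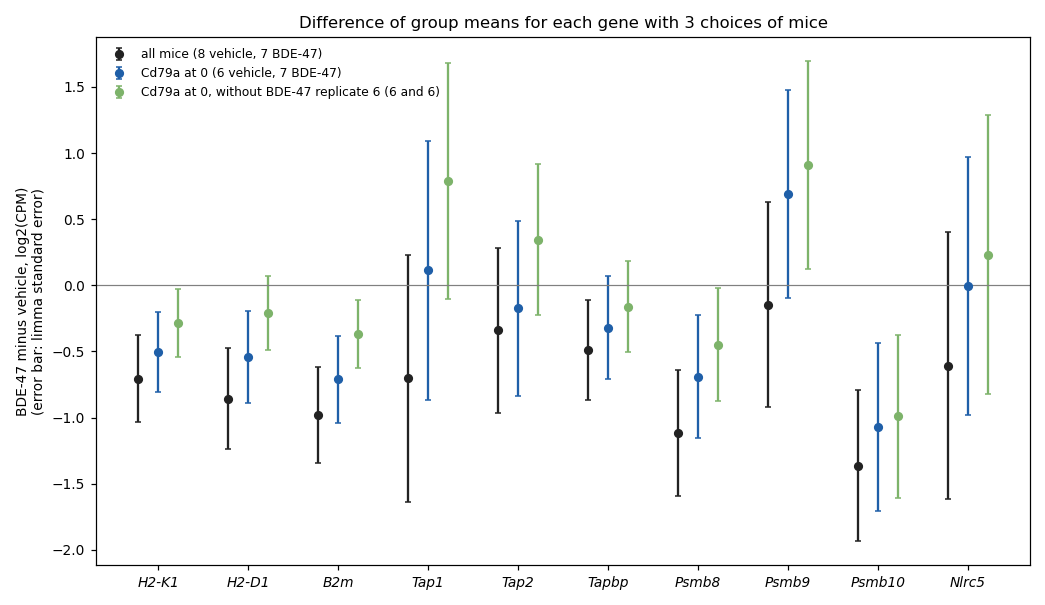
For each gene the difference of group means (BDE-47 minus vehicle, log2(CPM)) is plotted for all mice (black), for mice with Cd79a at 0 (blue) and for those without BDE-47 replicate 6 (green); bars are limma standard errors. From black to green every gene lies higher; Tap1, Tap2, Psmb9 and Nlrc5 cross 0, and Psmb10 stays lowest at -1.36, -1.07 and -0.99.

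Over the 3 choices of mice the number of members with a lower mean in BDE-47 mice went from 10 to 8 to 6 of 10, beside 50.9%, 53.4% and 50.0% of all genes. The median log2 difference over the members went from -0.70 to -0.41 to -0.19, while that over all genes was -0.02, -0.07 and 0.00. By limma, 5, 1 and 0 members had an unadjusted p under 0.05 and were lower (2.71%, 2.85% and 2.49% of all genes), the 1 being B2m. In the 2 smaller sets 0 members were higher at that p, beside 1.65% and 2.19% of all genes. Past 2-fold lower were 2 members with all mice (Psmb8 and Psmb10; 13.2% of all genes), 1 with Cd79a at 0 (14.2%) and 0 in the smallest set (14.4%). With Cd79a at 0, limma called 0 of 9506 genes at an adjusted p under 0.05 (lowest 0.515) and 428 (4.5%) at an unadjusted p, and the exact test called 0 and 403 (4.24%). Without BDE-47 replicate 6 as well, limma called 0 members and 2 of 9506 genes (0.021%), named here after their values were seen: Wfdc18, higher by 1.78 with BDE-47 (adjusted p = 0.0316), and Chchd2, at -1.48 (adjusted p = 0.04996). At an unadjusted p it called 445 genes (4.68%), and the exact test 421 (4.43%, 2.2% lower), with 0 members in either. No difference of a member between the sets of mice was tested, since the sets share most mice.

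Within single mice, an immunoproteasome subunit can be set against the constitutive subunit whose place it takes. Psmb8 was above Psmb5 in all 12 mice that had both above 0, by 0.40 to 4.49 on the log2 scale, and Psmb5 was listed at 0 in the other 3. Psmb9 was above Psmb6 in 3 of 15 mice, which were both Cd79a mice (by 0.47 and 0.98) and 1 BDE-47 mouse (by 1.70). The latter was BDE-47 replicate 4, where Psmb6 was at 4.35, against 6.42 to 6.99 in the other BDE-47 mice. In the other vehicle mice Psmb9 lay 0.88 to 4.04 below Psmb6. Psmb10 was above Psmb7 in 3 of 6 vehicle mice with Cd79a at 0, in both Cd79a mice and in 1 of 7 BDE-47 mice, with medians of -0.10, 1.57 and -1.29. These within-mouse differences between the groups were not tested. How fully the reads of each gene were counted is not known, so which gene of a pair had more RNA is uncertain. Of 14 housekeeping genes, 5 were listed at 0 in at least 1 mouse, Pgk1 and Tbp each in 12 of 15.

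**Figure D3:**
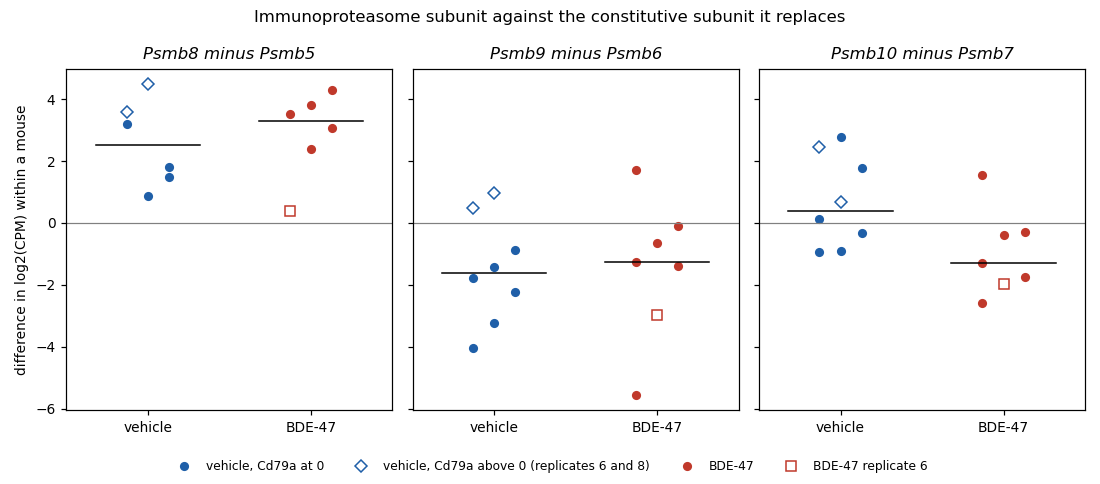
Each point is 1 mouse, placed by the log2(CPM) of an immunoproteasome subunit minus that of the constitutive subunit it replaces; black lines are group medians and the Psmb8 panel holds the 12 mice with both genes above 0. All Psmb8 points lie above 0, most Psmb9 points lie below 0, and the BDE-47 points of Psmb10 lie below 0 but for 1 mouse.

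The constitutive catalytic subunits themselves had 0 of 3 genes at an unadjusted limma p under 0.05 (4.65% of all genes in either direction). Their log2 differences with all mice were -0.82 for Psmb5, -0.20 for Psmb6 and 0.30 for Psmb7. Among 13 tested genes of the proteasome core and its assembly, 1 was lower at that p: Psma4, an alpha ring subunit, was above 0 in 8 of 8 vehicle and 5 of 7 BDE-47 mice, with a difference of -1.70 (exact permutation test p = 0.105). Psmb4 and Psmg2, the next in order, were at -0.70 and 0.79. Among the 4 proteasome activators 1 was lower at that p: Psme1, a subunit of the 11S cap that interferon raises, was at 6.51 in vehicle and 5.32 in BDE-47 mice on average (difference -1.19, exact permutation test p = 0.0429). Psme1 was at -0.92 with Cd79a at 0 (exact permutation test p = 0.168). Without BDE-47 replicate 6 as well it was at -0.86 (p = 0.299, exact permutation test). With all mice its partner Psme2 was at -0.98 and Psme3 at 0.75.

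Of 15 other class I heavy chain genes of the H2 region, 7 could be tested, 6 had a lower mean with BDE-47 (50.9% of all genes) and 1 was lower at an unadjusted limma p under 0.05 (2.71% of all genes). This was H2-T22, a nonclassical heavy chain, with means of 5.15 and 3.64 and a difference of -1.52 (exact permutation test p = 0.0269), which was -1.13 with Cd79a at 0. H2-T23, which encodes the Qa-1 heavy chain, was at -1.08 with all mice and -0.72 with Cd79a at 0. Without BDE-47 replicate 6 as well, H2-T23 was at -0.09. H2-Q6, above 0 in 5 of 8 vehicle and 3 of 7 BDE-47 mice, was at -1.55, -0.72 and -0.55 over the same sets of mice. Of the 5 tested class I-like genes outside the region (Procr, Cd1d1 and Mr1 among them, at 0.57, -0.22 and 0.37), 0 had such a p.

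Among 8 tested genes of peptide loading and trimming, 1 was lower at that p. Calr, calreticulin, a lectin chaperone that holds the heavy chain for loading, was at 8.13 in vehicle and 7.34 in BDE-47 mice on average (difference -0.80, SE 0.35, exact permutation test p = 0.00637). Its difference was -0.66 with Cd79a at 0 (exact permutation test p = 0.0286) and -0.57 without BDE-47 replicate 6 as well (p = 0.0498, exact). Over the same sets of mice, in that order, the oxidoreductase Pdia3 was at -0.84, -0.89 and -0.25. The chaperone Hspa5 was at -0.47, -0.22 and -0.06. Of 14 tested genes of class I transcription, 7 were lower and 7 higher on average with all mice, and 2 lower and 12 higher with Cd79a at 0, where 50.9% and 53.4% of all genes were lower. With Cd79a at 0, 0 of the 14 had an unadjusted limma p under 0.05. With all mice 1 had an unadjusted limma p under 0.05, Creb1 (above 0 in 8 of 8 vehicle and 5 of 7 BDE-47 mice; difference -1.98, exact permutation test p = 0.0544), and Nfya and Irf2 were at 0.90 and -0.95. Of 7 tested interferon receptor and kinase genes, Ifngr1, the ligand-binding chain of the interferon gamma receptor, was lower at that p, with means of 6.15 and 4.73 (difference -1.41, exact permutation test p = 0.0141). It was at -1.18 with Cd79a at 0 (exact permutation test p = 0.0600), and Ifnar2 and Jak1 were at -1.68 and -0.35 with all mice. Of 12 tested housekeeping genes, 9 had a lower mean with all mice (50.9% of all genes) and 1 an unadjusted p under 0.05: Polr2a, the largest subunit of RNA polymerase II, at -2.06 (exact permutation test p = 0.00031), with Actb at -0.67 and Tubb5 at -0.62. All of these had a limma adjusted p of at least 0.982.

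Across the 15 mice the 10 genes were positively correlated with one another. Pearson's r was above 0 in all 45 pairs of members, with a median of 0.53 (0.18 to 0.85), beside a median of 0.03 over all pairs of the 2577 genes above 0 in every mouse. The closest pair was H2-K1 with B2m (0.85), and H2-D1 with B2m was at 0.82. Tap1 and Psmb9, which share their upstream stretch, were at 0.59 with all mice. That pair was at 0.42 with Cd79a at 0 and at 0.38 without BDE-47 replicate 6 as well. With Cd79a at 0 the median over pairs was 0.42, and without BDE-47 replicate 6 as well it was 0.20, with 31 of 45 pairs above 0. H2-K1 with B2m was then at 0.66, and H2-K1 with H2-D1, which was at 0.62 with all mice, was at 0.08. These values describe mice that also differ in cell content, and genes of 1 library are not independent.

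The mean z-score of the 10 genes (each gene scaled to SD 1 over the mice) was highest in vehicle replicates 8 and 6 (1.33 and 1.13) and lowest in BDE-47 replicate 6 (-1.86). The remaining 12 mice lay between -0.56 and 0.71, where the highest was BDE-47 replicate 3. Of 12 marker lists, the summed level of lymph node stroma markers had the highest correlation with the score over 15 mice (r = 0.72). Macrophage (0.68), T cell (0.67), B cell (0.66), dendritic cell (0.65), NK cell (0.65) and endothelial markers (0.63) followed. Skeletal muscle markers were at -0.61 and adipocyte markers at -0.31. Over the 13 mice with Cd79a at 0, r was 0.81 with adipocyte, 0.73 with endothelial and -0.77 with skeletal muscle markers, and 0.17 with B cell markers. Without BDE-47 replicate 6 as well, the highest were dendritic cell (0.56), adipocyte (0.55) and endothelial markers (0.51), skeletal muscle markers were at 0.10, and mammary epithelium markers went from 0.45 to -0.49. Adipocyte marker sums were also lower with BDE-47 among mice with Cd79a at 0 (medians of 26220 CPM with vehicle and 14067 CPM with BDE-47), and their part in the class I differences was not tested.

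**Figure D4:**
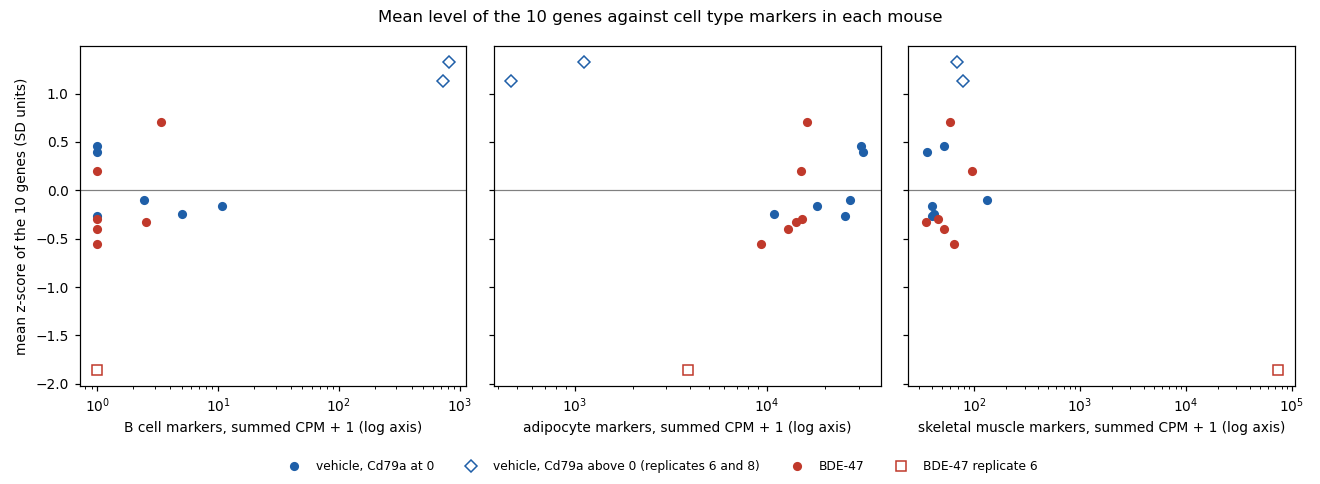
The mean z-score of the 10 genes in each mouse is plotted against summed CPM + 1 of B cell, adipocyte and skeletal muscle markers on log axes; symbols are as in the plot of levels by mouse. The Cd79a mice lie at the top with the most B cell and the least adipocyte signal, BDE-47 replicate 6 lies at the bottom with the most skeletal muscle signal, and the other 12 mice overlap between the groups.

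The 5 genes whose levels were most like the mean of the members over 15 mice were Grn (r = 0.88), Ly6e (0.87), Rpl31 (0.87), Laptm5 (0.86) and Rps19 (0.86). Grn encodes progranulin, Laptm5 a lysosomal protein of blood cells, Ly6e an interferon-inducible surface protein, and Rpl31 and Rps19 ribosomal proteins. Over the 13 mice with Cd79a at 0 they were Nat9 (0.89), Dstn (0.88), Ly6e (0.88), Cav1 (0.86) and Ifi27 (0.86), so that Ly6e was on both lists. Cav1 encodes caveolin-1 of adipocytes and endothelium, and Ifi27 is another interferon-inducible gene. Without BDE-47 replicate 6 as well, the 5 were Smg1 (0.90), Upp1 (0.89), Meis2 (0.89), Rfc3 (0.88) and Ccdc181 (0.87), none of which was on the other lists, and this set of mice was added to the naming rule after the values were seen. The lists were picked as the highest of all genes tested other than the members, so the values of r are a description.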

How the data were processed

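Expression was measured in mammary tissue of 8 vehicle and 7 BDE-47 mice, 1 library per mouse, all labelled as 1 experiment. The authors normalized mapped reads to CPM, per the study's methods. That the deposited values are log2 of CPM, with anything below 1 CPM at 0, was read from the values themselves. STAR 2.5.3a and GRCm38 are named in the submitters' processing notes, and how reads were counted is not given in the sources used here. The deposited log2 values were used as given, with no count model. Of 52636 entries, 110 that repeat a gene name were dropped. At the recovered depth of 10.06 to 19.58 M reads, 1 CPM stands for at least 10.06 reads.

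The members and lists were chosen with earlier results of these data known. Genes above 0 in at least 7 mice (9506) were tested with limma 3.58.1 in R 4.3.3 (empirical Bayes with a trend, Benjamini-Hochberg adjustment over all of them), without a covariate for xenografts. Each gene was also tested by the exact permutation test of the difference of group means, two-sided, over 6435, 1716 or 924 arrangements of mice, for which the smallest p is 0.000155, 0.000583 and 0.00216. The text names all members, from each pathway list the 3 genes with the smallest limma p and any past 2-fold with an unadjusted p under 0.05 (with all mice or with Cd79a at 0), and the 5 genes most correlated with the members' mean z-score. Cell type markers are given by counts and summed CPM. Promoters came from RefSeq GRCm38.p6.

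Alternatives were log2(CPM + 1), log2(CPM + 0.1), other filters (above 0 in at least 2 mice, a mean of at least 10 CPM), median centring, quantile normalization, array weights, Cd79a as a covariate, leaving out mice with at least 4 B cell markers, a replicate block and leaving out each mouse. The permutation and limma steps were tested on simulated data. With all mice and a simulated log2 change of 1, limma gave an unadjusted p under 0.05 in 16% of 50 genes. It gave an adjusted p under 0.05 in 0% of them. For a log2 change of 2 these shares were 60% and 22%. Changes of the size seen in the members could therefore go uncalled. Other computations used Python 3.11.15, numpy 2.4.6, pandas 2.3.3 and scipy 1.17.1, and figures matplotlib 3.10.9.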

Additional observations from a re-analysis of the deposited data

Results flagged for a closer look

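In groups of 7 or 8 mice, the highest or lowest mouse was set apart where its gap to the nearest other mouse exceeded Dixon's 95% critical value of the group's range (0.568 for 7 and 0.526 for 8 mice). Over 98 groups examined (members, named pathway genes and summed markers in each treatment), 10 were marked. Chance marks about 1 in 20 where values are normally distributed, which was not tested for summed CPM or values listed at 0. None of the 10 members was marked. The rule looks for a single mouse apart, so 2 mice that lie together far from the rest are not marked. B cell markers in vehicle replicates 6 and 8 (731 and 813 CPM) went unmarked, against at most 9.87 CPM in the other vehicle mice. The rule therefore cannot decide whether a member stood apart in both of these mice.

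H2-T23 was listed at 0 in BDE-47 replicate 6, against 3.41 to 5.76 log2(CPM) in the other BDE-47 mice. Pdia3 was at 0.88 in the same mouse, against 4.65 to 5.82. Psmb6 was at 4.35 in BDE-47 replicate 4, against 6.42 to 6.99, and Polr2a was listed at 0 in that mouse, against 3.47 to 4.72. Ifnar2 was listed at 0 in vehicle replicate 5, against 3.41 to 6.30.

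Skeletal muscle markers summed to 73316 CPM in BDE-47 replicate 6, against 34.1 to 95.2 CPM in the other BDE-47 mice, and to 132 CPM in vehicle replicate 1, against 34.8 to 78.0 CPM in the other vehicle mice. In BDE-47 replicate 3, T cell markers summed to 9.84 CPM and NK cell markers to 8.76 CPM, both against 0 in the other BDE-47 mice, and lymph node stroma markers to 3.95 CPM, against at most 1.46 CPM. That mouse had the highest mean z-score of the 10 class I and immunoproteasome genes among the 7 BDE-47 mice, at 0.71.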

How the results depend on the processing

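The number of genes called over all mice was 0 in each of 25 alternatives. With Cd79a at 0 it was 0, and it was 3 with array weights and between 0 and 3 when mice were left out one at a time: 3 without vehicle replicate 2, 1 without BDE-47 replicate 3 and 2 without BDE-47 replicate 6. With all mice, the number of members with an unadjusted p under 0.05 was 2 by the exact test and 5 by limma. By limma it was also 5 with quantile normalization, 0 with array weights, 2 with the replicate block and 1 with Cd79a as a covariate. The exact test gave 1 without the mice with at least 4 B cell markers. It gave 1 to 5 when mice were left out one at a time (5 without BDE-47 replicate 3, 1 without vehicle replicates 3, 4, 6 or 8 or BDE-47 replicates 5 or 6). With Cd79a at 0 the number was 1 by either test. By the exact test it was then 0 with median centring and 0 to 1 when mice were left out. By limma it was 1 with quantile normalization, 0 with array weights and 0 with the replicate block. Array weights moved the members most: their median difference was -0.14 with all mice and -0.03 with Cd79a at 0. The cause was not tested.

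H2-K1, H2-D1, B2m, Psmb8 and Psmb10 were lower with BDE-47 under each alternative run, with and without the Cd79a mice (Psmb10 from -1.62 to -0.36, B2m from -1.17 to -0.30). The other members changed sign. The alternatives are not independent checks. Leaving out mice with B cell markers gave the same mice as Cd79a at 0, and Cd79a as a covariate gave the same differences. The other filters left the difference of every member they kept unchanged. With array weights, Tap1 was at 0.21, Tap2 at 0.15, Psmb9 at 0.46 and Nlrc5 at 0.19 with all mice, and Tap2 at 0.27, Tapbp at 0.0522 and Nlrc5 at 0.58 with Cd79a at 0. With Cd79a as a covariate or without the mice with B cell markers, Tap1 was at 0.11 and Psmb9 at 0.69. Nlrc5 with Cd79a at 0, at -0.0033, turned to 0.046 with log2(CPM + 1), 0.32 with log2(CPM + 0.1) and 0.12 with median centring. When mice were left out one at a time, Psmb9 lay between -0.58 and 0.43 and Tap2 between -0.64 and 0.18 with all mice, and with Cd79a at 0 Tap1 lay between -0.67 and 0.79, Tap2 between -0.47 and 0.35 and Nlrc5 between -0.56 and 0.59.

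No sign was found that the replicate numbers of the labels pair the mice. In 0 of 7 pairs did same-numbered mice deviate together with a correlation over 0.1 (median 0.02, and 0.00 for other numbers). With so few pairs this cannot exclude that same-numbered mice were handled together. The replicate block left vehicle replicate 8, or with Cd79a at 0 BDE-47 replicate 6, without a partner and so without weight. It gave 0 genes called in both fits, Psmb9 at 0.19 with all mice, and Tap2 at 0.35 and Nlrc5 at 0.23 with Cd79a at 0.

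The precision is limited by the number of mice and by values listed at 0. Genes with a mean of 10 to 20 CPM were at 0 in 28.5% of values and those of 100 to 1000 CPM in 0.41%. Nlrc5 was not fitted under the filter of a mean of at least 10 CPM.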
